A study of Drosophila melanogaster with 33 samples.

Results

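Ada2b loci that were narrow and lay close to another Ada2b locus were examined on the major autosome arms of Drosophila melanogaster embryos. A locus was a stretch covered by Ada2b peaks of both replicate peak lists, where only peaks that shared 1 bp or more with a peak of the second list were kept, and overlapping or touching peaks were merged. Members were loci on 2L, 2R, 3L or 3R with a merged width under 700 bp and a gap of 2000 bp or less, edge to edge, to the nearest other locus of any width. This rule selected 770 loci, which were 20.5% of all 3750 loci found in both lists, 26.2% of the 2940 loci on the 4 arms and 28.6% of the 2689 narrow loci on them (95% Wilson interval 27.0% to 30.4%). The members were thus chosen by measured values, the positions and widths of called peaks, and their widths, gaps and signal are given as descriptions without a test.

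The series held 33 chromatin immunoprecipitation sequencing (ChIP-Seq) libraries, of which 14 were wild type and 19 were Ataxin-7 mutant. The 2 libraries used here were both Ada2b ChIP from Ataxin-7 mutant embryos of 1-3 hr (stage 4-6), precipitated with a rabbit antibody raised against amino acids 1-330 of Ada2b, with no further treatment. No wild type library was an Ada2b ChIP, so every value below comes from embryos that carry the Ataxin-7 mutation, and genotypes were not compared. The labels give neither the allele nor whether the replicates came from separate embryo collections. Whole embryos were used, so the signal at a locus is an average over all nuclei, and whether neighbouring loci were bound in the same nuclei cannot be told from it.

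Ada2b is a scaffold subunit of chromatin-modifying complexes that carry the acetyltransferase Gcn5, which acetylates histone H3. In flies it is found in SAGA, a large coactivator with a separate deubiquitinase module that Ataxin-7 tethers. It is also found in the smaller ADA complex, which has no such module. A short isoform of Ada2b is found in the CHAT complex, together with Gcn5 and Chiffon. ChIP of Ada2b does not tell these complexes apart, and a ChIP peak marks DNA near the protein and not the base it contacts.

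The list of replicate 1 held 4654 peaks and that of replicate 2 held 4484. The deposited fold enrichment is the pileup (fragments that cover the summit base in the ChIP library) divided by the local background after 1 is added to both. The pileup itself was recovered from the fold enrichment and the p-value, with a median of 92 fragments per peak in replicate 1 (range 50 to 400) and 82 in replicate 2 (39 to 387). The lowest background was 24.6 fragments in replicate 1 and 18.2 in replicate 2, so the same fold enrichment rests on fewer fragments in replicate 2, and levels were compared between loci of 1 list and not between the lists. Intervals cover counting error only and treat loci as independent. Of the 770 members, 612 lie in pairs in which each is the nearest locus of the other, so 2 members share 1 gap. Intervals for shares that depend on the gap are therefore likely too narrow.

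Members had a median width of 355 bp, with quartiles of 296 and 452 bp and a range of 206 to 699 bp. Gaps to the nearest locus ran from 3 to 1992 bp around a median of 398 bp (quartiles 189.5 and 1010.75 bp). Isolated narrow loci, the other 1919 narrow loci of the arms, had a median width of 344 bp and a median gap of 11038 bp. Most members lay far inside the limit of the rule: 432 of 770 (56.1%, interval 52.6% to 59.6%) had a gap of 500 bp or less. The gaps were most crowded from 101 to 200 bp, where 149 members lay, against 69 with gaps of 1 to 100 bp and 103 with gaps of 201 to 300 bp. Per 100 bp of gap, the number dropped to 55.5 members at 301 to 500 bp, 28 at 501 to 1000 bp, 21 at 1001 to 1500 bp and 18.6 at 1501 to 2000 bp. Overlapping or touching peaks became 1 locus, which can remove small gaps by construction. How far this and the peak calling lowered the number at 1 to 100 bp was not tested.

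On a log scale the gaps of all 2689 narrow loci had 2 crests, one of close neighbours and one of distant ones. In bins of equal log width, 165 loci had gaps of 178 to 316 bp, 113 had gaps of 316 to 562 bp and 120 had gaps of 562 to 1000 bp, after which the numbers rose to 404 loci at 10000 to 17783 bp. The limit of 2000 bp fell on the rising side of the distant crest, so the members included the whole close crest and the lower edge of the distant one.

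**Figure D1:**
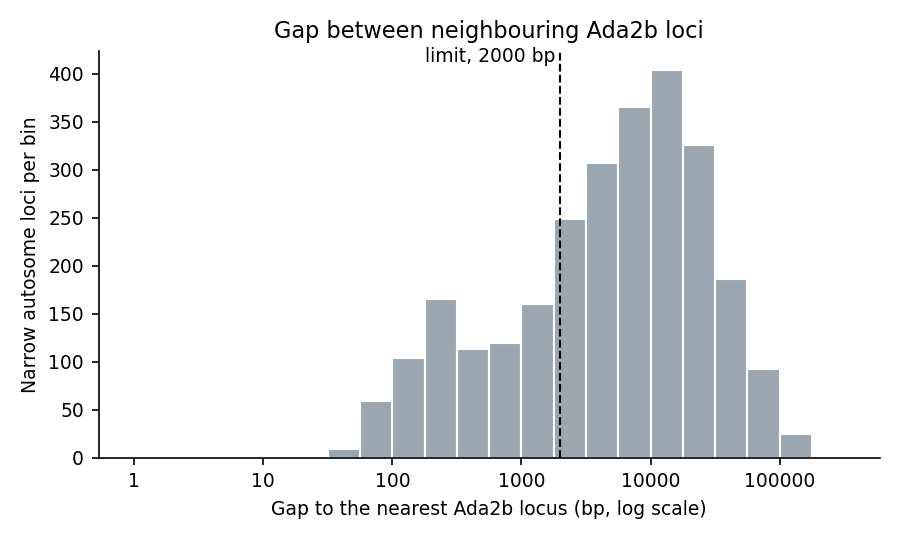
Gap to the nearest Ada2b locus for the 2689 narrow autosome loci, with the gap in bp on a log axis and the number of loci per bin on the other. The bin of 178 to 316 bp holds 165 loci and stands above its neighbours, and the tallest bin, at 10000 to 17783 bp, holds 404; the dashed line is the limit of 2000 bp.

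The thresholds cut through continuous values. The widest members were 699 bp (chr3R:19652000-19652698, fold enrichment 3.77 in replicate 1 and 5.38 in replicate 2), 697 bp (chr2R:15337548-15338244, 2.22 and 3.10) and 695 bp (chr2R:13279593-13280287, 3.28 and 4.73). Loci just too wide were 700 bp (2.44 and 2.59), 702 bp (2.89 and 3.80) and 703 bp (4.01 and 6.04), so fold enrichments on either side of the width limit overlapped. The members with the largest gaps were a pair 1992 bp apart and 3 loci with a gap of 1991 bp, and the nearest narrow loci left out had gaps of 2020 bp (a pair) and 2044 bp (4 loci).

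Members had lower median signal than isolated narrow loci in both lists. The median fold enrichment of members was 3.15 in replicate 1 (quartiles 2.56 and 4.14, range 1.69 to 12.1) and 3.66 in replicate 2 (quartiles 2.85 and 4.89, range 1.68 to 16.7). Isolated narrow loci had medians of 3.41 (quartiles 2.70 and 4.84) and 3.88 (quartiles 3.05 and 5.69), and the 251 broad loci of the same arms had medians of 3.62 and 4.46. The ranges of all 3 classes overlapped widely in each list. Median pileups showed the same order: 94 fragments at members, 102 at isolated narrow loci and 116 at broad loci in replicate 1, and 83, 88 and 112 in replicate 2. The local background was close, at a median of 29.2 for members and 28.9 for isolated narrow loci in replicate 1, and 21.5 for both in replicate 2.

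Members were also less common among strong peaks than isolated narrow loci were. In the upper 10% of its list by score lay 58 members in replicate 1 (7.53%, interval 5.87% to 9.61%) and 52 in replicate 2 (6.75%, 5.19% to 8.75%). Isolated narrow loci reached it more often, with 260 of 1919 in replicate 1 (13.5%, 12.1% to 15.2%) and 255 in replicate 2 (13.3%, 11.8% to 14.9%). Scores above the median of the list in both replicates were found for 348 members (45.2%, 41.7% to 48.7%) and 988 isolated loci (51.5%, 49.2% to 53.7%). The rank order of members held between the lists, with a Spearman's rho of fold enrichment of 0.868 over 770 loci, against 0.893 for isolated and 0.898 for broad loci; these points share their 2 libraries and the peak calling. The summit of a member moved by a median of 20 bp between the lists (quartiles 9 and 44 bp, largest 440 bp), against 17 bp for isolated narrow loci. Loci of both classes are under 700 bp wide, which bounds these shifts.

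**Figure D2:**
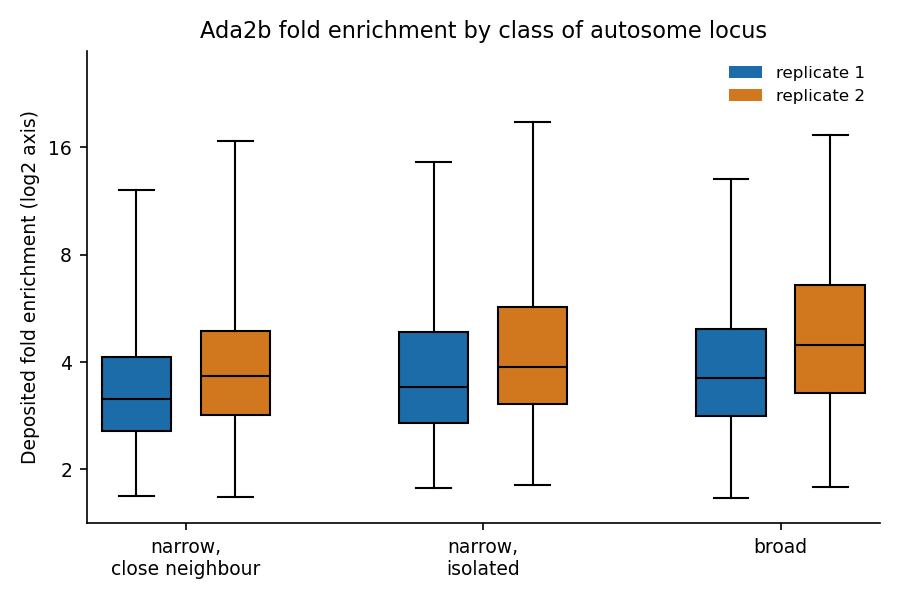
Deposited fold enrichment (log2 axis) of the 770 narrow loci with a close neighbour, the 1919 isolated narrow loci and the 251 broad loci, for each replicate. Boxes give quartiles and median, whiskers the lowest and highest value; members have the lowest median in both replicates, 3.15 and 3.66, within ranges that overlap.

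The best ranked member over both lists was chr3R:6500841-6501266, with a fold enrichment of 11.9 from 330 fragments in replicate 1 and of 16.7 from 333 in replicate 2. Its neighbour chr3R:6503259-6503710, at the largest gap of any member, 1992 bp, was strong too, with 8.77 and 12.1. The next was chr3R:8453382-8453903, with 10.1 (352 fragments) and 12.3 (356 fragments) and a gap of 706 bp. Both of these leading loci lay on 3R, which held 227 of the 770 members, as did 5 of the first 6. The only one elsewhere was chr2L:18152158-18152835, 678 bp wide with a gap of 381 bp, whose fold enrichment was 8.61 in replicate 1 and 16.2 in replicate 2 from pileups of 330 and 336 fragments. The remaining loci of the first 6 were chr3R:1124720-1125134 (11.0 and 14.5, gap 1217 bp), chr3R:16773710-16774200 (12.0 and 15.3, gap 115 bp) and chr3R:8903987-8904384 (12.1 and 14.7, gap 603 bp). Their gaps thus spanned nearly the whole range that the rule allows.

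Members were found along all 4 arms. They made up 30.2% of the narrow loci on 2L (187 of 620, interval 26.7% to 33.9%), 30.1% on 2R (199 of 661, 26.7% to 33.7%), 25.2% on 3L (157 of 622, 22.0% to 28.8%) and 28.9% on 3R (227 of 786, 25.8% to 32.1%), and these intervals overlap. Per Mb between the first and last locus of an arm, members numbered 8.15 on 2L, 9.42 on 2R, 6.41 on 3L and 8.14 on 3R. All 98 windows of 1 Mb that held a narrow locus held a member, with a median of 7 (quartiles 4 and 10). The fullest window, from 8 to 9 Mb on 2R, held 24 members among 45 narrow loci, and 3 windows, from 2 to 3 Mb and 9 to 10 Mb on 2R and from 4 to 5 Mb on 3R, held 19 each.

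The nearest locus of a member was in most cases another member, 676 of 770 (87.8%, interval 85.3% to 89.9%). A narrow locus within the gap limit of a member is itself a member by the rule. This share is therefore that of narrow loci among the nearest loci. Of all 2940 loci on the arms, 2689 were narrow, so the share shows no preference of members for members. The other 94 members (12.2%) lay beside a broad locus, at a median gap of 363.5 bp, and the broad neighbours had a median width of 830.5 bp (range 700 to 3235 bp). Members beside a broad locus had lower fold enrichments, with medians of 2.60 in replicate 1 (quartiles 2.32 and 3.35) and 3.11 in replicate 2 (2.59 and 3.95), than members beside a member, with 3.22 (2.63 and 4.25) and 3.77 (2.93 and 5.00). The broad neighbour was the stronger of the pair at 62 of these 94 members in replicate 1 (66.0%) and 63 in replicate 2 (67.0%), and in both lists at 55 (58.5%, 48.4% to 67.9%). All broad loci also had higher medians than all members, 3.62 and 4.46 against 3.15 and 3.66. Of the broad loci, 14.7% and 17.9% held more than 1 peak of the list, and the strongest was used. How far this set the shares was not tested.

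Members formed 306 neighbour pairs in which each locus was the nearest of the other, and these pairs held 612 members (79.5%). The median gap within a pair was 374 bp (quartiles 183 and 973 bp, range 37 to 1992 bp). Measured from summit to summit, the distance had a median of 764 bp in replicate 1 (quartiles 542.5 and 1295 bp) and 785.5 bp in replicate 2 (541.25 and 1321.75 bp). Summit distances of 401 to 800 bp were found in 148 pairs in replicate 1 (48.4%) and 146 in replicate 2 (47.7%). The fullest class of 100 bp was 501 to 600 bp in both lists, with 45 and 52 pairs, next to 44 and 40 pairs at 401 to 500 bp and 32 and 25 at 601 to 700 bp. Only 12 and 13 pairs had summits closer than 401 bp, a range in which loci must be narrow to stay apart: the shortest peak in either list was 200 bp wide. At the far end, 24 and 22 pairs had summits 2001 to 2700 bp apart.

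**Figure D3:**
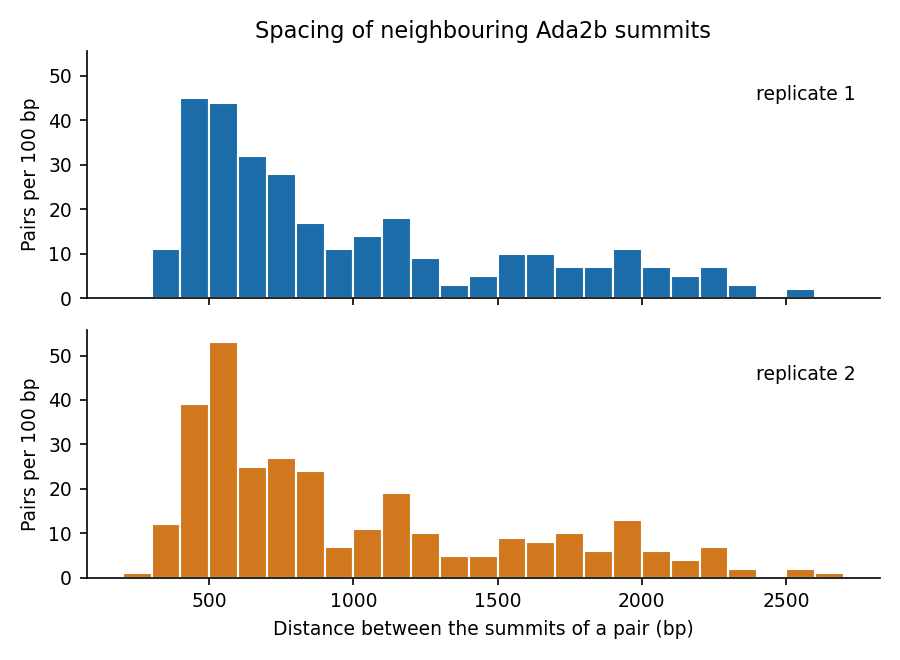
Distance between the summits of the 306 neighbour pairs, in bins of 100 bp, for each replicate; the vertical axis is the number of pairs per bin. Distances of 401 to 800 bp hold 148 pairs in replicate 1 (48.4%) and 146 in replicate 2 (47.7%). Only 12 and 13 pairs lie below 401 bp, and the rest lie above 800 bp, where the gap limit of 2000 bp bounds the far end.

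The spacing of a pair was close to the same in both lists. The summit distance moved by a median of 30 bp between them (quartiles 14 and 56.75 bp, largest 473 bp). This was small beside the spread between pairs, but the rule itself bounds it. Peaks of both lists had to overlap and merge into loci under 700 bp, so each summit could move only within its locus. Summits lay near the centre of their locus, with a median shift of 4 bp towards the partner in replicate 1 and 4.75 bp in replicate 2, and 332 (54.2%) and 339 (55.4%) of the 612 summits lay on the partner's side. A peak of 1 list alone lay inside the gap of 11 pairs (3.59%). These 11 peaks, 8 of replicate 1 and 3 of replicate 2, had fold enrichments of 1.87 to 3.44.

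Partners often differed in strength, and mostly in the same direction in both libraries. The stronger locus of a pair had a median fold enrichment of 4.09 in replicate 1 and 4.71 in replicate 2, and the weaker 2.84 and 3.18; taking the higher of 2 values sets this direction by construction. The median ratio of stronger to weaker was 1.36 in replicate 1 (quartiles 1.14 and 1.71, largest 6.87) and 1.44 in replicate 2 (1.20 and 1.95, largest 6.43). More than 2-fold apart were 49 pairs in replicate 1 (16.0%) and 72 in replicate 2 (23.5%). The locus with the lower coordinate was the stronger in 156 pairs in replicate 1 (51.0%, interval 45.4% to 56.5%) and 158 in replicate 2 (51.6%, 46.0% to 57.2%). Fold enrichments of partners were weakly related, with a Spearman's rho of 0.185 in replicate 1 and 0.134 in replicate 2 over 306 pairs that share a library.

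The same locus was the stronger in both lists in 258 of 306 pairs (84.3%, interval 79.8% to 88.0%). The log2 ratio of left to right fold enrichment had a Spearman's rho of 0.897 between the lists. Of the 48 pairs that differed in order, 39 had a log2 ratio of 0.25 or less, in either direction, in replicate 1, 35 in replicate 2 and 45 in at least 1 of them. The other 3 were further apart in both lists, and the largest log2 ratio of a pair that changed order was 0.82, in replicate 1. Of 96 pairs with a log2 ratio of 0.25 or less in replicate 1, 57 kept their order in replicate 2 (59.4%, 49.4% to 68.7%). The number rose to 69 of 75 pairs at 0.25 to 0.5 (92.0%), 83 of 86 at 0.5 to 1 (96.5%) and 49 of 49 above 1. With the classes set in replicate 2, 36 of 71 pairs (50.7%), 65 of 73 (89.0%), 85 of 90 (94.4%) and 72 of 72 kept their order in replicate 1.

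**Figure D4:**
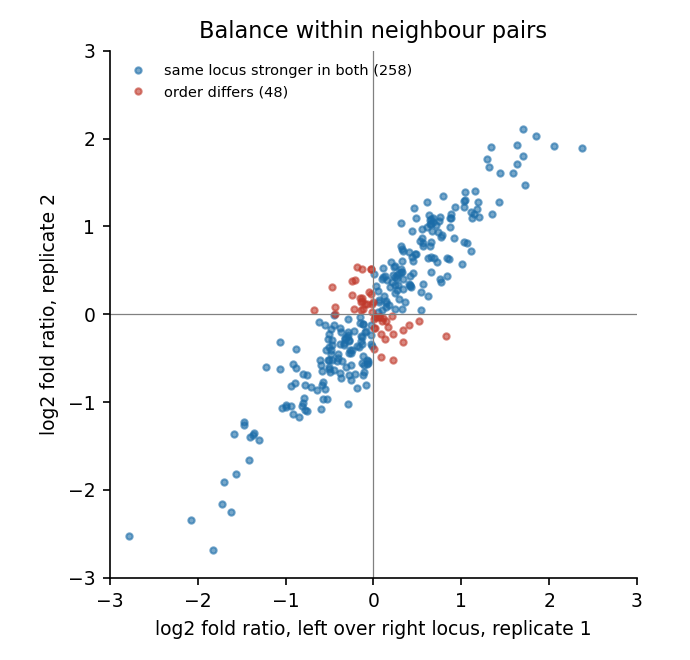
Log2 ratio of the fold enrichment of the left locus over the right locus in each of 306 neighbour pairs, replicate 1 across and replicate 2 up. In 258 pairs (blue) the same locus was the stronger in both replicates, and of the 48 pairs that changed order (red) 45 had a log2 ratio of 0.25 or less, in either direction, in at least 1 replicate.

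Counting error sets the scale of these differences. The counting SD of the log2 pileup ratio of a pair, from the fragments at its summits, had a median of 0.206 in replicate 1 and 0.220 in replicate 2. Pileups were more than 2 counting SD apart in 149 pairs in replicate 1 (48.7%) and 168 in replicate 2 (54.9%). They were so in both lists in 124 pairs (40.5%, interval 35.2% to 46.1%), and the same locus was the stronger in all 124. In 113 pairs the pileups lay within 2 counting SD in both lists, and there the order by fold enrichment matched in 75 (66.4%, 57.3% to 74.4%). The log2 pileup ratios of the lists lay within 2 counting SD of each other in 287 pairs (93.8%), with a median difference of 0.203.

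The balance of a pair varied little with the gap. The median ratio of stronger to weaker in replicate 1 was 1.36 at gaps of 1 to 200 bp (95 pairs), 1.35 at 201 to 500 bp (83 pairs), 1.36 at 501 to 1000 bp (54 pairs) and 1.37 at 1001 to 2000 bp (74 pairs). In replicate 2 it was 1.37, 1.52, 1.46 and 1.37. The order matched between the lists in 81 pairs at 1 to 200 bp (85.3%), 76 at 201 to 500 bp (91.6%, interval 83.6% to 95.9%), 44 at 501 to 1000 bp (81.5%) and 57 at 1001 to 2000 bp (77.0%, 66.3% to 85.1%). Background entered the ratio as well. Where the background of the partners differed, the weaker locus had the higher one in 181 of 285 pairs in replicate 1 (63.5%) and 158 of 258 in replicate 2 (61.2%); the fold enrichment is divided by that background. Medians were 29.7 fragments at the weaker and 28.4 at the stronger locus in replicate 1, and 22.0 and 21.0 in replicate 2. Ratios of the pileups alone had medians of 1.32 and 1.42, close to those of the fold enrichments.

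The 4 most unequal pairs each joined a weak locus to a strong one. On 3R, chr3R:8903067-8903383 had fold enrichments of 1.77 (63 fragments) and 2.56 (81 fragments), and chr3R:8903987-8904384, 603 bp away, had 12.1 (310) and 14.7 (285), a ratio of 6.87 in replicate 1 and 5.73 in replicate 2. On 2R, chr2R:11704306-11704769 had 2.21 and 2.46, and chr2R:11706007-11706368, 1237 bp away, had 9.32 and 12.5, a ratio of 4.21 and 5.09. In the other two the lower coordinate held the strong locus. The 2L pair set chr2L:14588860-14589247 (9.98 and 12.4) against chr2L:14589791-14590050 (2.40 and 3.30) over a gap of 543 bp, a ratio of 4.17 and 3.77. The last 3R pair set chr3R:17345940-17346337 (9.61 and 11.8) against chr3R:17346508-17346778 (1.85 and 3.18) over 170 bp, a ratio of 5.20 and 3.70. In each of these 4 pairs the lowest pileup of the strong locus was well above the highest of the weak one. The pairs were picked by fold enrichment, and the weak locus had the higher background in each. In the first pair it was 35.2 and 31.0 fragments, against 24.6 and 18.5 at the strong locus. The log2 ratio of left to right pileup there was -2.30 and -1.81, against -2.78 and -2.52 for fold enrichment.

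The pairs named here for their small gaps had fold enrichments of 1.72 to 3.39 in replicate 1 and 2.16 to 4.35 in replicate 2. The closest lay 37 bp apart on 3R, where chr3R:24684009-24684557 had fold enrichments of 2.31 and 2.22 and chr3R:24684595-24685219 had 3.35 and 4.34. Their summits were 536 bp apart in replicate 1 and 732 bp in replicate 2, a shift of summits within wide loci of 549 and 625 bp. On 2L, chr2L:6920801-6921484 (2.02 and 2.64) and chr2L:6921534-6922223 (2.01 and 2.75) were 49 bp apart and within counting error of each other in both lists. On 3L, chr3L:9422749-9423125 (3.09 and 4.35) and chr3L:9423178-9423493 (3.39 and 3.91) were 52 bp apart, and the order turned between the lists. It turned too at chr2L:9987969-9988346 (1.72 and 2.25) and chr2L:9988405-9988791 (2.01 and 2.16), 1 of 3 pairs with a gap of 58 bp. The pairs tied with it, whose left loci were chr2L:12003580-12003896 and chr2R:6411188-6411531, kept their order. That on 2R had lower fold enrichments in replicate 2, of 1.84 and 1.99. Over all 69 members with a gap of 100 bp or less, the median fold enrichment was 2.84 in replicate 1 and 3.45 in replicate 2, against 3.61 and 3.93 over the 93 members with gaps of 1501 to 2000 bp. The classes between had medians of 2.98 to 3.24 and 3.54 to 3.86, with no steady rise.

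Longer runs of loci were found as well. Loci of any width linked by gaps of 2000 bp or less formed 386 chains on the 4 arms, of which 376 held a member. Most chains had 2 loci (302), 57 had 3 loci, 19 had 4, 5 had 5, 2 had 6 and 1 had 11. The 302 chains of 2 loci held 540 members (70.1%), the chains of 3 loci held 135 (17.5%) and the 27 longer chains held 95 (12.3%). Fold enrichments were lower in longer chains: the median in replicate 1 was 3.28 in chains of 2 loci (quartiles 2.68 and 4.34), 2.98 in chains of 3 (2.43 and 3.63) and 2.72 in longer ones (2.18 and 3.69). In replicate 2 the medians were 3.83, 3.44 and 3.33. Median widths were 352 bp in chains of 2, 343 bp in chains of 3 and 432 bp in longer ones, with no steady rise. Median gaps to the nearest locus were 460, 359 and 279 bp. A locus inside a chain has a close locus on each side and its gap is the smaller distance. Smaller gaps in longer chains thus follow in part by construction. Background differed little, with medians of 29.0, 29.4 and 30.0 fragments in replicate 1 and 21.5, 21.2 and 21.7 in replicate 2. The quartile ranges of the 3 classes overlapped in each list.

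The chain with the most loci spanned 11828 bp at chr2R:6411188-6423015, with 11 loci of which 8 were members and 3 were broad. Its members had low fold enrichments, of 1.89 to 2.84 (median 1.99) from 58 to 89 fragments in replicate 1. In replicate 2 they had 1.84 to 2.61 (median 2.16) from 44 to 77 fragments. Their background was uneven, at 26.8 to 46.0 fragments in replicate 1 and 18.2 to 38.3 in replicate 2. Both upper values were the highest of all members, whose medians were 29.2 and 21.5. The fold enrichment is divided by the background. Pileups of the members of this chain were low too, with medians of 72.5 and 52.5 fragments against 94 and 83 over all members. What each contributed to the low fold enrichments was not tested. The median gap in this chain was 213.5 bp. Its broad loci had 2.31 to 4.24 (replicate 1) and 2.11 to 4.24 (replicate 2), and the strongest of them, 2512 bp wide, closed the chain at its right end. By fold enrichment, the members of this chain thus lay in the lower part of the range of all members in both lists.

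By median fold enrichment, members of the other long chains were stronger than those of the longest. The all 6-member chain on 2R had medians of 2.53 in replicate 1 and 3.08 in replicate 2. These were still below 3.15 and 3.66 of all members. The chain on 2L had 3.39 and 4.64. The chain at chr2R:8475585-8481304 spanned 5720 bp and had 6 loci, all members, with fold enrichments in replicate 1 of 1.95, 2.71, 2.00, 2.34, 3.35 and 5.05 from left to right. In replicate 2 the same loci had 2.66, 4.05, 2.09, 2.81, 3.34 and 7.05, so the rightmost locus was the strongest in both lists, with 153 and 157 fragments. The chain at chr2L:19810606-19817593 spanned 6988 bp, with 5 members and a broad locus of 710 bp at its left end (4.06 and 6.72). Its members had 3.00, 3.39, 4.06, 3.04 and 9.02 in replicate 1 and 4.64, 3.75, 5.05, 3.23 and 11.4 in replicate 2. Again the strongest was the rightmost, chr2L:19817137-19817593, with 249 and 217 fragments against 76 to 103 and 61 to 96 at the other 4 members.

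**Figure D5:**
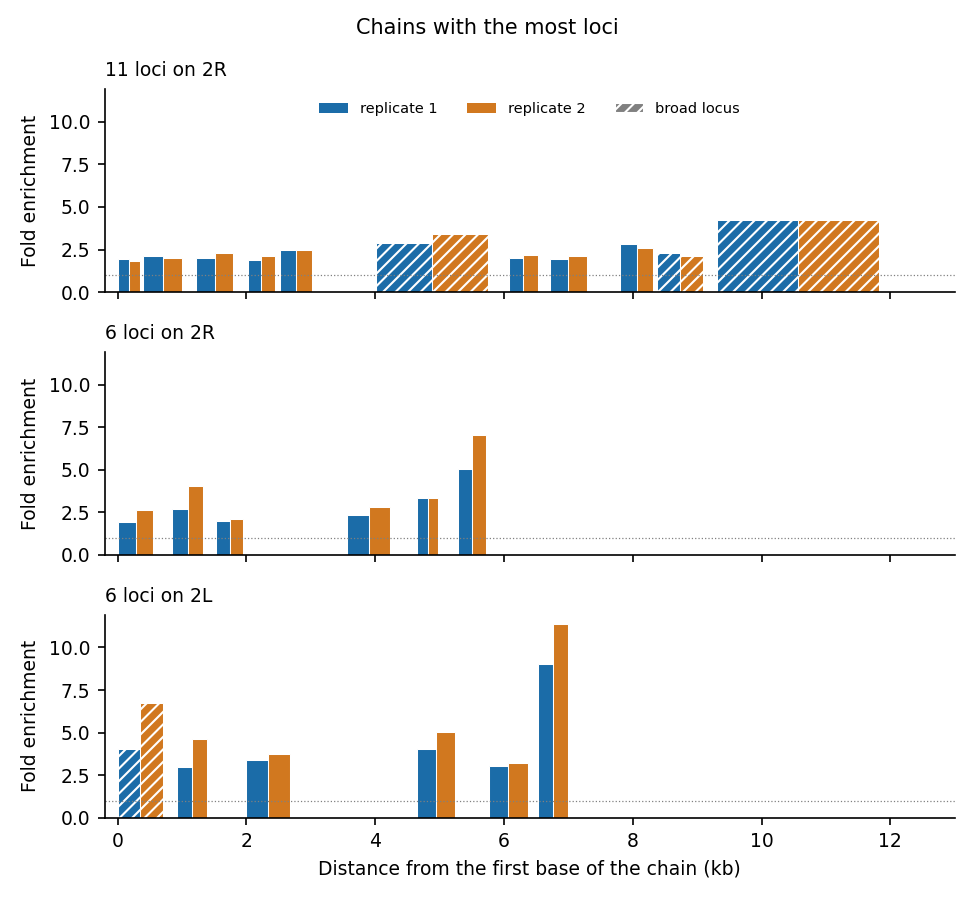
The 3 chains with the most loci, drawn to scale from their first base (kb) with deposited fold enrichment as bar height; each locus is split into a left bar for replicate 1 and a right bar for replicate 2, hatching marks broad loci and the dotted line is a fold enrichment of 1. The 8 members of the longest chain stay between 1.84 and 2.84, and single loci reach 7.05 and 11.4 in the other chains.

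The number of members depended on asking for both replicates. Peaks of replicate 1 alone, treated the same way, gave 1220 members and 148 chains of 3 or more loci, and peaks of replicate 2 alone gave 1160 members and 134 such chains, against 770 and 84 when both were required. When peaks below the median score of their list were dropped, 207 members and 9 chains of 3 or more loci were left. The share of narrow loci with a close neighbour was then 15.4%, against 35.1% and 35.0% for the single lists, so this share fell as the peaks kept became fewer and stronger.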

How the data were processed

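ChIP-Seq of Ada2b was analysed for 2 Ataxin-7 mutant libraries, each with 1 peak list. The authors aligned 50 bp single reads to dm3 with Bowtie (-k 1 -m 3) and called peaks per replicate with MACS2 at default settings; the submitters' processing notes also name CASAVA 1.8.2. The control library and tool versions were not given in the sources used here. Deposited values were the peak score (in 100% of peaks the truncated value of 10 times −log10 q), the fold enrichment ratio and the −log10 p-value and −log10 q-value at the summit. Each list was matched to its library by the replicate name in the labels.

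The pileup and background were recovered as the whole number that returns the deposited −log10 p-value as a Poisson tail; the largest miss was 1.44e-04 in replicate 1 and 2.51e-04 in replicate 2, against 0.0428 and 0.0458 or more for any other whole number. Coordinates are dm3, counted from 1. The counting SD of a log2 pileup ratio was taken from the Poisson error of both pileups. Where a locus held several peaks of a list, the strongest was used. Named loci were the 6 best by mean rank of score, the 4 pairs with the smallest gap, the 4 most unequal pairs with the same order in both lists (by the smaller log2 ratio of the lists), the 3 chains with the most loci, and 3 loci on each side of each threshold. The members, classes and rules were chosen with earlier results of these data known, so no test was run. Alternatives were a reciprocal overlap of 50%, the upper 50% of each list, gap limits of 1000 and 4000 bp, width limits of 500 and 1000 bp, peaks of 1 list as neighbours, other measures of strength within pairs, and each list alone. No dm3 genome or annotation was used here, so sequences and genes at the loci were not analysed. Python 3.11.15, numpy 2.4.6, pandas 2.3.3, scipy 1.17.1 and matplotlib 3.10.9 were used, and the functions were tested on simulated data.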

Additional observations from a re-analysis of the deposited data

How the results depend on the processing

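The share of pairs with the same stronger locus in both lists stayed between 82.7% and 86.6% over 9 alternatives, within the interval of the main value. Other values followed the settings; the cause was not tested beyond the fewer or more peaks that each setting keeps by construction. The share of narrow loci with a close neighbour was 27.0% with a reciprocal overlap of 50%, 21.3% and 40.2% with gap limits of 1000 and 4000 bp, 27.7% and 29.6% with width limits of 500 and 1000 bp, and 36.1% with peaks of 1 list counted as neighbours. With the upper 50% of each list, 207 members were left (15.4%), with a median gap of 502 bp, median fold enrichments of 4.24 and 5.05, summit distances of 961 and 986 bp and 9 chains of 3 or more loci. Gap limits of 1000 and 4000 bp gave median gaps of 256.5 and 883 bp, 52 and 145 such chains, and summit distances of 633.5 and 1168 bp (replicate 1) or 641.5 and 1178 bp (replicate 2). Width limits of 500 and 1000 bp gave median gaps of 418 and 381 bp and summit distances of 742 and 831.5 bp (replicate 1) or 742.5 and 813 bp (replicate 2). Each list alone gave 1160 to 1220 members, 35.0% to 35.1% of narrow loci, median gaps of 397.5 to 418.5 bp, 134 to 148 chains, and a summit distance of 741 bp in replicate 2. Shares by arm moved with the same settings, and the lowest arm changed from 3L to 2L (11.0%) with the upper 50% of each list. Of 110 alternative values, 30 stayed within the SD of the 2 lists or the counting interval. A further 9 counts stayed within 1.5 times the main count, and 71 values moved. For shares of narrow loci and for gaps, this SD was the spread of the 2 single-list runs and not an error of the main value. For fold enrichments and summit distances it was the spread of the 2 replicate medians.

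No paired analysis was possible because the results come from no test between groups. The single lists give no order between lists, and counting peaks of 1 list as neighbours gives no value for pairs or chains. With 2 libraries, 1 antibody and 1 genotype, the values describe these libraries. Weak loci near the lowest fold enrichments of the lists, 1.60 and 1.63, limit what can be said of the closest pairs. Alternatives that need the dm3 sequence or annotation were not run.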
